A study of Mus musculus with 2 samples.

Results

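Among the CD64-sorted cells of the adult mouse thymus, 222 of 3188 kept cells (6.96%, 95% exact binomial interval 6.10 to 7.90%) were Ly6c cells low in C1q. They were chosen by their own counts, with at least 2 unique molecular identifiers (UMIs, each a counted transcript molecule) of Ly6c2 and Ly6i together and at least 1 of Csf1r and Fcgr1 together. They also had fewer than 3 UMIs of C1qa, C1qb and C1qc, fewer than 2 of Ace, Treml4 and Adgre4, fewer than 2 of Cd209d and Cd209e, fewer than 2 of Siglech and 0 of Cd3d, Cd3e and Cd3g. The values that chose them are given as a description, and every comparison that follows is between groups of cells defined by their UMIs. The study profiled thymus cells of adult C57BL/6 mice, dissociated enzymatically, sorted on surface CD64 and sequenced with 10x Genomics Chromium 3′ chemistry. Its title asks how varied mouse thymic macrophages are and where they originate. The labels give 2 libraries, of 2021 and 2024, with no treatment, genotype or exact age, and do not say how many mice were pooled in each.

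Classical monocytes are made in the bone marrow, leave it through the chemokine receptor Ccr2 and carry Ly6C, a GPI-anchored surface protein encoded in part by Ly6c2, when they enter tissues from blood. There they can become macrophages or acquire antigen presentation genes, or they can lose Ly6C and become patrolling (nonclassical) monocytes, which depend on the nuclear receptor Nr4a1. Csf1r, the receptor for the macrophage growth factors CSF1 and IL-34, and Fcgr1, which encodes CD64, are shared by monocytes and macrophages, while the complement C1q genes are typical of tissue macrophages. In the thymus, macrophages take up the many thymocytes that die during selection.

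Every gene-level value comes from the 2021 library, with 8534578 UMIs in 3214 barcodes and a median of 2157.5 UMIs per barcode. The 2024 counts came to 24569270 UMIs in 2815 barcodes, with 33696 gene rows against 32285 in the 2021 gene list. No gene or barcode list of the 2024 library was used, so barcodes shared between the libraries were not counted. With 1 library there was no replicate, no test was run, and cells are not replicates. Intervals are exact, at the 95% level, and cover counting error only. The Ly6c cells had a median of 2657.5 UMIs (712 to 12846) and 747184 UMIs in all. They were set against 184 cells with at least 2 UMIs of Ace, Treml4 and Adgre4 (Ace cells, median 1997 UMIs) and against the 2966 other kept cells (median 2118.5). The 57 cells that met every part of the rule except the limit on C1q (C1q-bearing neighbours, median 3838 UMIs) served as a further group.

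Ly6c2 was at 1720 UMIs per 1e6 UMIs of the group (CPM) in the Ly6c cells, 343 in the Ace cells, 1497 in the C1q-bearing neighbours and 471 in all other kept cells. Single Ly6c cells held a median of 4 Ly6c2 UMIs, and the highest held 37. Ly6i, a related Ly6 gene, was at 320 CPM and was at 0 in 130 of the 222 cells. Csf1r was at 432 CPM with a median of 1 UMI per cell, and 33 cells had none. Fcgr1 was at 127 CPM, and 146 cells had no UMI of this gene, whose protein was the sorting marker. No C1q UMI was found in 197 cells, and the other 25 had 1 or 2.

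Ccr2 is the one marker of the label that the rule did not use. It was at 609 CPM (554 to 668) in the Ly6c cells, 248 in the Ace cells, 520 in the C1q-bearing neighbours and 206 in all other kept cells. After each cell was thinned to 2000 UMIs, 118 of 179 Ly6c cells had a Ccr2 UMI (65.9%, 58.5 to 72.8%), and 43 shallower cells were left out. The share was 29.3% of 92 Ace cells (92 left out), 57.4% of 54 C1q-bearing neighbours (3 left out) and 27.6% of 1570 other kept cells (1396 left out). Without thinning it was 78.8% of the Ly6c cells. In a background class of 394 cells with at least 10 UMIs of neutrophil granule genes and no Csf1r or Fcgr1 UMI (median 1987 UMIs), the thinned share for Ccr2 was 2.05%. Ly6c2 was not restricted in this way: 84.1% of the same granule-gene cells had a Ly6c2 UMI after thinning.

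The limits of the rule separated cells unequally. The 70 cells with 1 Ly6c2 or Ly6i UMI that met every other part had 406 CPM of Ccr2, and the 42 cells with 2 such UMIs had 687. Further inside the limit Ccr2 was not steadily higher, at 716 CPM in the 43 cells with 3 UMIs, 405 in the 17 with 5 and 299 in the 6 with 8. The 414 cells with 0 UMIs of Csf1r and Fcgr1 had 179 CPM of Ccr2, against 559 in the 115 cells with 1 UMI. Across the C1q limit, Apoe was at 996 CPM in the 11 cells with 2 C1q UMIs and 2428 in the 6 cells with 3, and Ccr2 at 646 and 899. The 40 cells with 1 UMI of Ace, Treml4 and Adgre4 had 678 CPM of Ccr2, and the 8 cells with 2 had 192.

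Markers of classical monocytes were present in every member: all 222 cells had at least 3 UMIs of the 15 genes in that list, which summed to 24251 CPM, against 14479 in the Ace cells and 9708 in all other kept cells, 2148 of which also reached 3 UMIs. Lyz2, encoding lysozyme, was detected in 217 cells and reached 14393 CPM. Other types were represented unevenly. At least 3 UMIs of the 15 macrophage markers were found in 160 Ly6c cells, and of the 15 conventional dendritic markers in 53. In all other kept cells these lists reached 3 UMIs in 1126 and 1019 of 2966. The 13 neutrophil markers reached 3 UMIs in 67 Ly6c cells, and the 12 natural killer (NK) and innate lymphoid markers in 8. For the 13 T lineage markers this was 4 cells, for the 10 B lineage markers 10 and for the 8 plasmacytoid dendritic markers 7. The basophil and mast cell list and the erythroid list were at 0. S100a8, an alarmin subunit abundant in neutrophils and in classical monocytes, was at 14611 CPM, but it was detected in 97 cells and 5 of them gave 55.9% of its UMIs. The top 6% of doublet scores among kept cells held 23 of the 222 Ly6c cells (10.4%) and 10.3% of the Ace cells. It held 10 of the 57 C1q-bearing neighbours (17.5%) and 5.12% of all other kept cells. Values recomputed without the highest doublet scores, or without cells holding other types' markers, are given in the closing section. There, other types are the neutrophil, NK and innate lymphoid, T lineage and B lineage lists only. Why values changed was not tested.

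**Figure D1:**
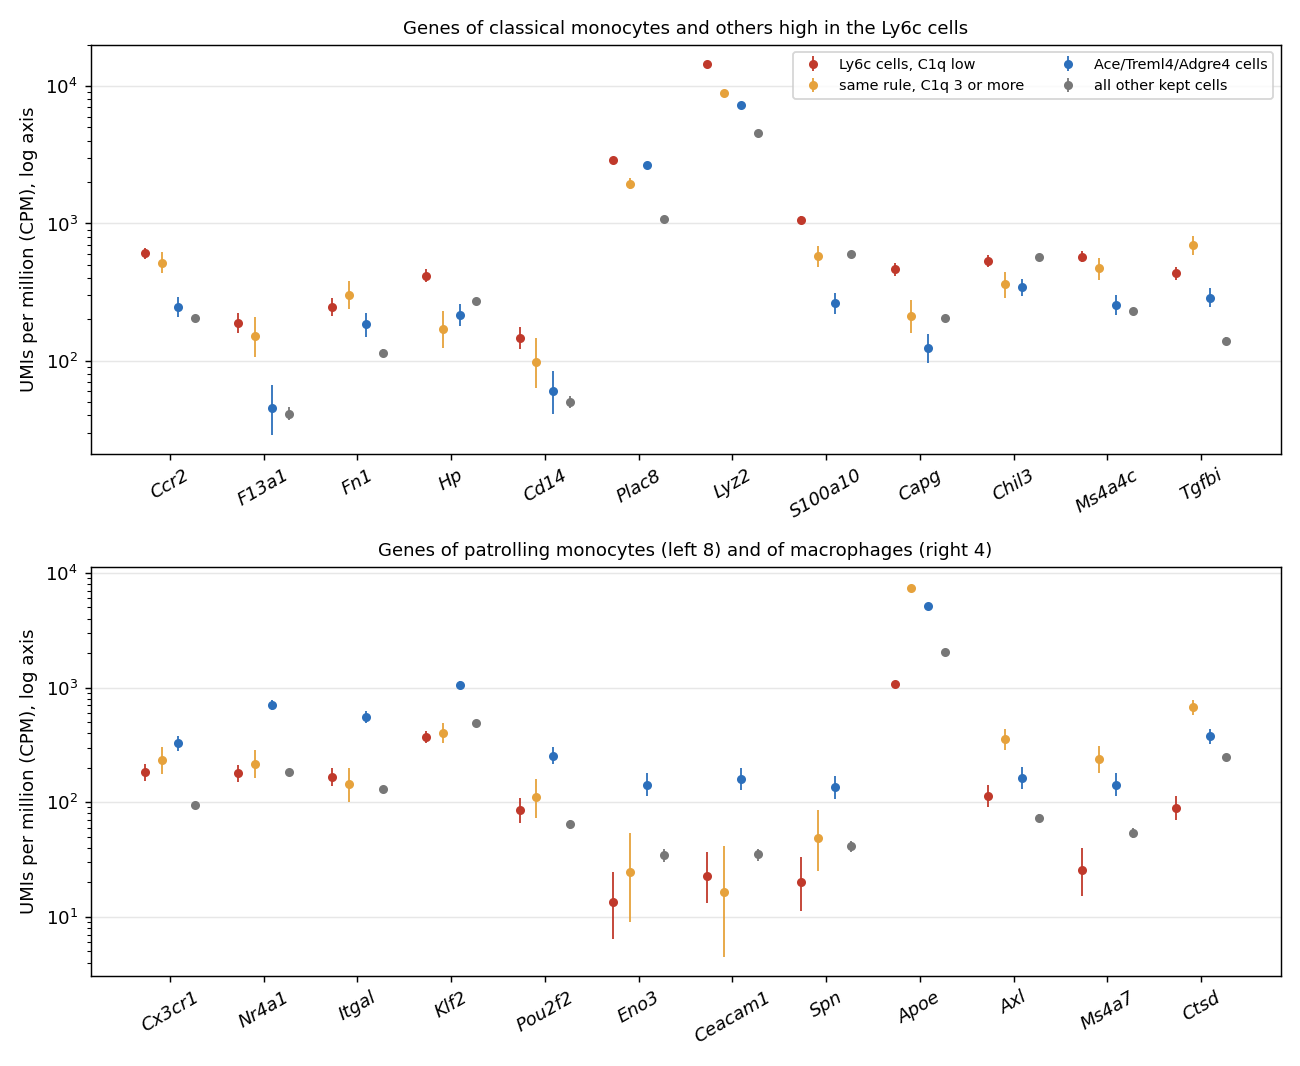
Levels of 24 genes, in CPM on a log axis, in the Ly6c cells low in C1q (red), the C1q-bearing neighbours (orange), the Ace cells (blue) and all other kept cells (grey), with exact 95% Poisson intervals for counting error. Ccr2, F13a1, Lyz2 and Capg are highest in the red group, patrolling monocyte genes are highest in the blue group, and Apoe is lowest in the red group at 1068 CPM.

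Against the Ace cells, the Ly6c cells were higher in genes of classical monocytes and lower in genes of patrolling monocytes. F13a1, the A subunit of coagulation factor XIII, was at 190 CPM (160 to 224) against 45.0, a log2 ratio of 2.08 (1.45 to 2.77). S100a10, the partner of annexin A2, was at 1057 against 263 CPM (log2 ratio 2.01), and Capg, an actin filament capping protein, at 464 against 124 (1.91). Il1rn, the secreted antagonist of the interleukin-1 receptor, was at 147 against 37.5 CPM (1.97), although 5 cells gave 39.1% of its UMIs. Further genes among the 12 most raised were Ckap4 (1.57), Magohb, of the exon junction complex (1.51), Glrx, a glutaredoxin (1.46), and Plp2 (1.46). The other 4 were genes of dividing cells: Cenpa, the centromeric histone (2.39), Hist1h2ae (1.79), Stmn1, a microtubule regulator (1.74), and Birc5 (1.46). With 37 dividing Ly6c cells left out, and no Ace cells left out, these turned to -0.26, -2.89, -1.77 and -2.75. Of the 5117 genes compared, 2.7% were at least 2-fold higher and 11.1% at least 2-fold lower in the Ly6c cells, with a median log2 ratio of -0.14 over all of them.

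The Ace group was itself mixed. At least 3 C1q UMIs were found in 46 of the 184 Ace cells, and 50 had at least 2 UMIs of Ly6c2 and Ly6i. The 138 Ace cells with fewer than 3 C1q UMIs therefore served as a second comparison, in which 4.47% of 5008 genes were at least 2-fold higher and 10.5% at least 2-fold lower in the Ly6c cells. Several of the lowest genes depended on this choice. Vcam1, an adhesion molecule, was at 6.69 CPM in the Ly6c cells, 396 in all Ace cells and 20.7 in the Ace cells low in C1q, so that its log2 ratio moved from -5.89 to -1.63. Slc40a1, the iron exporter ferroportin, moved from -5.03 to -2.14, Pld3 from -4.32 to -1.73, Apoc1, an apolipoprotein, from -3.49 to -1.86, Cd81, a tetraspanin, from -3.53 to -1.23, and Timp2, an inhibitor of metalloproteinases, from -2.53 to -0.82. Tcf7l2, a transcription factor of Wnt signalling, moved from -4.39 to -3.46. The others did not shrink: Fabp4, a fatty acid binding protein, was at -4.90 and -5.14, Eno3, the muscle-type enolase, at -3.41 and -3.70, and Ceacam1, an adhesion protein, at -2.81 and -3.23. Spn, encoding CD43, was at -2.75 and -3.07, and Ear2, a secreted ribonuclease, at -2.54 and -2.80.

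Of 18 genes in the patrolling monocyte list, 14 were at least 2-fold lower in the Ly6c cells than in the Ace cells and 0 were at least 2-fold higher, with a median log2 ratio of -2.00 (-2.21 against the Ace cells low in C1q, again with 14 of 18 lower). Nr4a1 was at 179 CPM in the Ly6c cells and 704 in the Ace cells (log2 ratio -1.97), and Itgal, a subunit of the integrin LFA-1, at 166 and 553 (-1.74). Klf2, a transcription factor, was at 371 and 1056 CPM (-1.51), and Pou2f2 at 85.7 and 255 (-1.57). Cx3cr1, the fractalkine receptor, differed less, at 183 and 328 CPM (-0.84, -1.17 to -0.51), and was detected in 31.8% of thinned Ly6c cells and 35.9% of thinned Ace cells. Fcgr4, an activating IgG receptor of patrolling monocytes, was at 20.1 and 93.8 CPM (-2.22), whereas Fcer1g, the signalling chain of such receptors, was at 3713 and 3696 CPM (0.01, -0.08 to 0.09). In the list for monocyte origin and migration, 5 of 20 genes were at least 2-fold higher and 1 at least 2-fold lower, with a median of 0.66. Over all genes compared with the Ace cells, 2.7% were higher and 11.1% lower. Plac8, often used as a marker of classical monocytes, was at 2918 and 2646 CPM (0.14, 0.04 to 0.24), so that this gene separated the groups little.

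Against all other kept cells, a mixture that includes the Ace cells and the C1q-bearing neighbours, 2.65% of 4952 genes were at least 2-fold higher in the Ly6c cells and 4.5% at least 2-fold lower. F13a1 led again, at 190 against 41.2 CPM (log2 ratio 2.21, 1.91 to 2.50). It was followed by Gm9733 (1.82), Cxcl10 (1.81), Sirpb1c, of the signal regulatory protein family (1.72), and Lyz2 (1.65). Only 38 Ly6c cells held Cxcl10 UMIs, and 5 of them gave 40% of these. Next were Tgfbi, an extracellular matrix protein (1.63), Clec4a3, a C-type lectin receptor (1.61), and Ccr2 (1.57). Cd14, the co-receptor for lipopolysaccharide (1.56), Nupr1, a stress-induced nuclear protein (1.47), Plac8 (1.44) and Ifi204, an interferon-induced DNA sensor (1.44), completed the 12. The 12 lowest were mostly lymphocyte genes, namely Gzma (-4.42), Cd8a, Tcf7, Spint2, Ptprcap, Ccl5 (-3.10), Nkg7, Ets1, Satb1 and Klrd1, with Retnlg (-2.50), a gene of neutrophils for which 5 Ly6c cells gave 71.6% of the UMIs, and Cd81 (-2.42). Cells with any Cd3 UMI could not be members, which bears on the T cell genes among them. Flt3, the growth factor receptor of dendritic cells and their precursors, was at 4.02 CPM against 52.1 (-3.70).

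Genes of inflammatory activation were also above the rest of the library: 6 of 20 were at least 2-fold higher and 0 at least 2-fold lower, with a median log2 ratio of 0.70. Over all genes compared, 2.65% were higher, 4.5% were lower and the median was 0.05. Il1b, encoding interleukin-1 beta, was at 711 against 492 CPM (0.53). Against the Ace cells the same list had 3 of 21 genes higher and 5 lower, with a median of -0.11. There, 2.7% of all genes compared were higher and 11.1% lower, with a median of -0.14. Cebpb, from the list of myeloid transcription factors, was at 1609 CPM against 634 in all other kept cells (1.34). Among chemokines, 5 of 12 genes were at least 2-fold higher and 3 lower than in all other kept cells (median 0.56), beside 2.65% and 4.5% over all genes. Cxcl9, a ligand of Cxcr3, illustrates how few cells can carry such a value, since 12 Ly6c cells held its 117 UMIs and 1 cell held 59 of them.

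**Figure D2:**
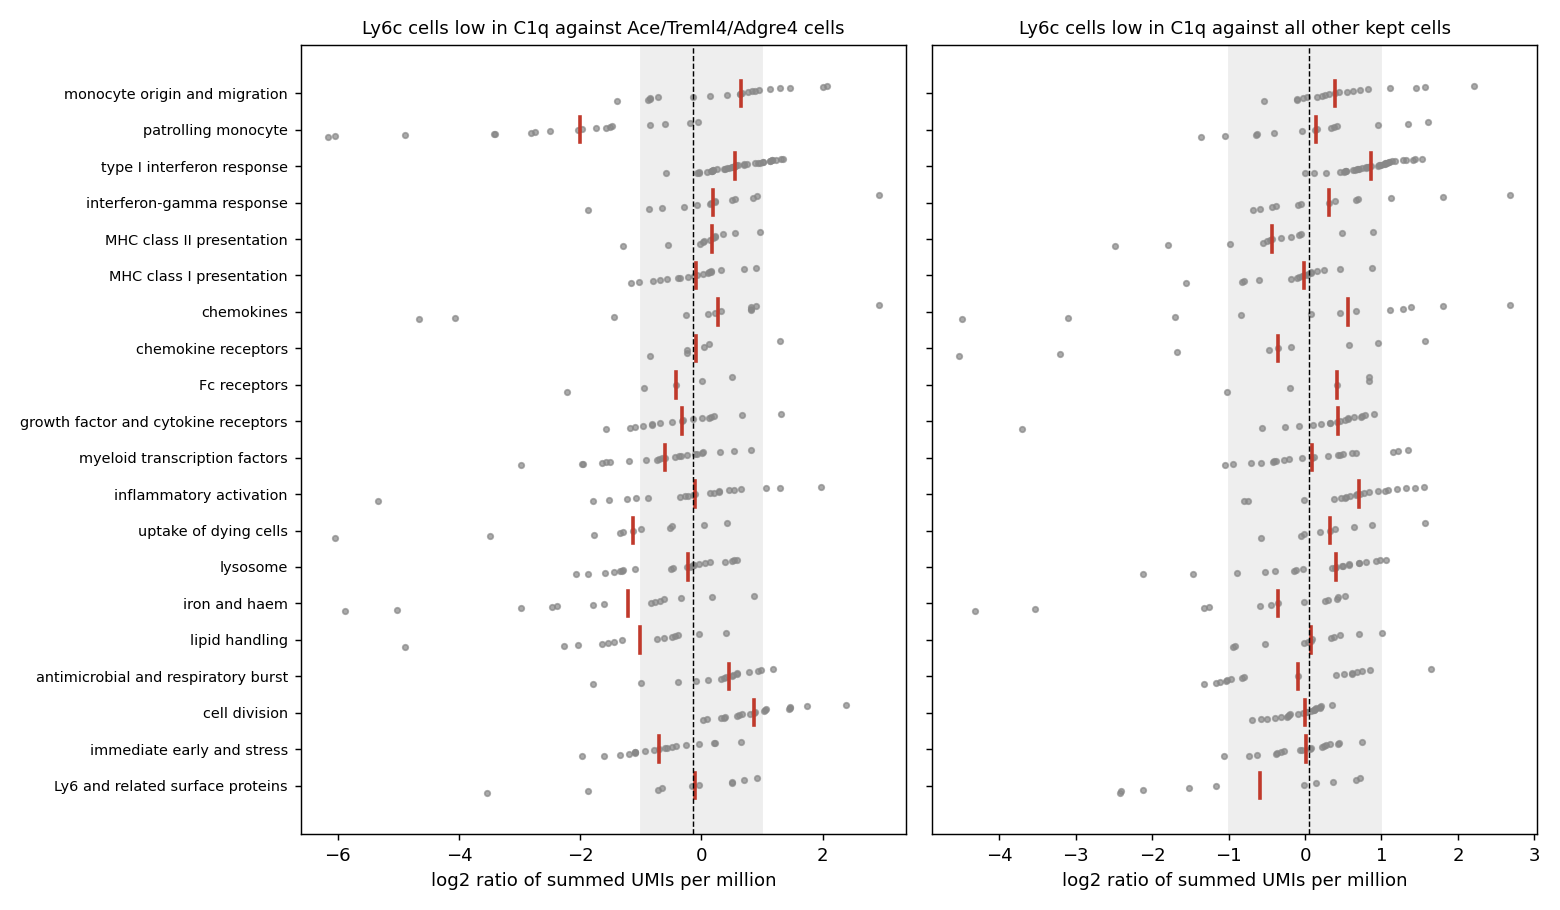
Log2 ratios of the genes in 20 lists (grey points, one per gene compared) and their medians (red bars), for the Ly6c cells against the Ace cells (left) and all other kept cells (right). The dashed line is the median over all genes compared, the shaded band marks ratios within 2-fold, and the patrolling monocyte list stands lowest on the left with a median of -2.00.

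Interferon-induced genes were higher in the Ly6c cells, taken as a group, than in both main comparison groups. The members differed among themselves, as the split by MHC class II below shows. Against all other kept cells, 14 of 37 genes of the type I interferon list were at least 2-fold higher and 0 lower, with a median log2 ratio of 0.86. Over all genes compared, 2.65% were higher and the median was 0.05. Against the Ace cells, 9 of 37 were higher and 0 lower, with a median of 0.55, beside 2.7% and -0.14 over all genes. Against the C1q-bearing neighbours, 1 of 36 was higher, 0 were lower and the median was -0.01, beside 4.51% and -0.09 over all genes. Isg15, a ubiquitin-like modifier, was at 642 CPM (586 to 702) in the Ly6c cells, 319 in the Ace cells, 548 in the neighbours and 383 in all other kept cells. After thinning, an Isg15 UMI was found in 45.3% of Ly6c cells and in more of the granule-gene cells (57.4%). For Ifi27l2a (87.2% and 68.7%) and Ms4a4c (62.0% and 4.10%) the Ly6c cells had the larger share. Ifi27l2a was the most abundant gene named here from the list, at 5228 CPM in the Ly6c cells, 3447 in the Ace cells and 2649 in all other kept cells. Ms4a4c, a membrane protein, was at 574, 255 and 230 CPM, and Zbp1, a sensor of Z-form nucleic acids, at 222, 131 and 106. Single Ly6c cells gave a median of 1.16% of their UMIs to the list, from 0 to 4.27%.

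Many interferon-induced genes are known to carry a motif bound by interferon-activated factors in their promoters. The motif searched was GAAA, any 2 bases, then GAAA again, on both strands, in RefSeq windows of 300 bases per promoter (250 before to 50 after the start) on build GRCm38.p6. It occurred in 18 of 31 matched genes of the type I interferon list (58.1%), in 12 of 19 of the interferon-gamma list (63.2%) and in 1079 of all 27025 genes with a promoter entry (3.99%). None of the 13 matched genes of the monocyte origin list had it. The 220 bases before the start are shown for 3 interferon genes that hold the motif, to show its spacing and its distance from the start, and for Ccr2 and Ly6c2, markers of the label whose windows hold none. Capitals mark motif matches, and each sequence runs 5′ to 3′ on the strand of its gene.
Isg15, chr4:156200819-156201038, minus strand: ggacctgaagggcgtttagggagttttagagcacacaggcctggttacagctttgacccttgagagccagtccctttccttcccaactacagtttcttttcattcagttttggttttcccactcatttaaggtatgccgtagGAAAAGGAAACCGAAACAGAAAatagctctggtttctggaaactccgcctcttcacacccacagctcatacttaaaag
Ifit1, chr19:34640669-34640888, plus strand: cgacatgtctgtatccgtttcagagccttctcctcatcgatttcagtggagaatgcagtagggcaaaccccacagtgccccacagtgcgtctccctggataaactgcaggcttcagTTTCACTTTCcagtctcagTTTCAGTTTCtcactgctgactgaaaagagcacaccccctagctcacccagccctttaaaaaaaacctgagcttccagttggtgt
Cxcl10, chr5:92348890-92349109, minus strand: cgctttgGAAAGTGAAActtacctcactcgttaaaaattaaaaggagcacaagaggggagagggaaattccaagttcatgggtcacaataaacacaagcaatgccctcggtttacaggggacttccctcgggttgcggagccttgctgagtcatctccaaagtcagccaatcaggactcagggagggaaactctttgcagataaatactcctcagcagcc
Ccr2, chr9:124101963-124102182, plus strand: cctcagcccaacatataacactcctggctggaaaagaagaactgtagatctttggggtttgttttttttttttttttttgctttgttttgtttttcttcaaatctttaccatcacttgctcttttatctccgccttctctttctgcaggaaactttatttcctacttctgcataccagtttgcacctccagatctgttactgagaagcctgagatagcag
Ly6c2, chr15:75111972-75112191, minus strand, the first of 2 entries: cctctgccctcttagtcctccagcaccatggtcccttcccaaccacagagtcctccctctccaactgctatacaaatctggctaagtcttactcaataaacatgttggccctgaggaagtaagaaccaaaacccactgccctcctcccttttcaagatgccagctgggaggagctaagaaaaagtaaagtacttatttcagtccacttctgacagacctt
In Isg15 there were 3 overlapping matches, whose first base lay at -78, -72 and -66 from the start. Ifit1, encoding an RNA-binding inhibitor of viral translation, had 2 matches, on the opposite strand, at -104 and -85. Its level was 107 CPM in the Ly6c cells and 61.5 in all other kept cells (log2 ratio 0.80). Cxcl10, a chemokine for activated T cells, had 1 match at -213, and its level was 194 against 55.5 CPM (1.81), with 40% of its UMIs from 5 Ly6c cells. No entry was matched for Ly6i, Ly6a or Ifi27l2a.

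The C1q-bearing neighbours were close to the Ly6c cells low in C1q in Ccr2 and F13a1 and stood apart in macrophage genes. Of 4949 genes, 4.51% were at least 2-fold higher and 9.72% at least 2-fold lower in the Ly6c cells low in C1q. Ccr2 (log2 ratio 0.23, -0.06 to 0.52) and F13a1 (0.33, -0.20 to 0.89) did not differ beyond counting error, while Hp, encoding haptoglobin, was at 418 CPM against 172 (1.28). Apoe, a lipid carrier of macrophages, was at 1068 CPM against 7438 (-2.80), Vcam1 at 6.69 against 421 (-5.98), and Ms4a7, a macrophage membrane protein, at 25.4 against 237 (-3.22). Axl, a receptor for dying cells, was at 114 against 356 CPM (-1.65). Of 22 lysosome genes, 10 were at least 2-fold lower and 0 higher, with a median of -0.80. Among them the proteases Ctsd (89.7 against 671 CPM, -2.90), Ctsb (379 against 1186, -1.65) and Lgmn (79.0 against 389, -2.30) were lower. Mertk and Timd4, further receptors for dying cells, had 0 UMIs in the Ly6c cells. With the 0 set to a floor of 3 UMIs over the group, Mertk was 3.49 lower on the log2 scale than in the Ace cells. That value depends on the floor and is not a bound. The Ace cells low in C1q held 2.96 CPM, under the level of the floor. The neighbours were the deeper cells, with a median of 3838 against 2657.5 UMIs, and a fixed C1q limit is reached more readily in deep cells. They also had the larger share of cells in the top 6% of doublet scores, 17.5% against 10.4%. Whether doublets contribute to these differences was not tested.

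MHC class II genes, which present antigen to CD4 T cells, were not high in the Ly6c cells as a group. Cd74, the invariant chain, was at 9385 CPM, against 8473 in the Ace cells, 13861 in the neighbours and 12614 in all other kept cells. Cd74, H2-Aa, H2-Ab1 and H2-Eb1 together took 1.94% of the group's UMIs. The cells were divided in this measure: the median share per cell was 0.434%, 37 cells were at 0, and the highest reached 8.99%. There were 74 cells under 0.1%, 42 from 0.1 to 0.5%, 15 from 0.5 to 1%, 15 from 1 to 2%, 29 from 2 to 4% and 47 at 4% or more. A limit of 1%, set after these shares were seen, left 131 MHC class II-low cells (median 2473 UMIs) and 91 MHC class II-high cells (median 2977 UMIs), and 30 cells lay between 0.5 and 2%. The histogram of these shares shows a peak near 0 and a broad range above it, without a clear gap.

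**Figure D3:**
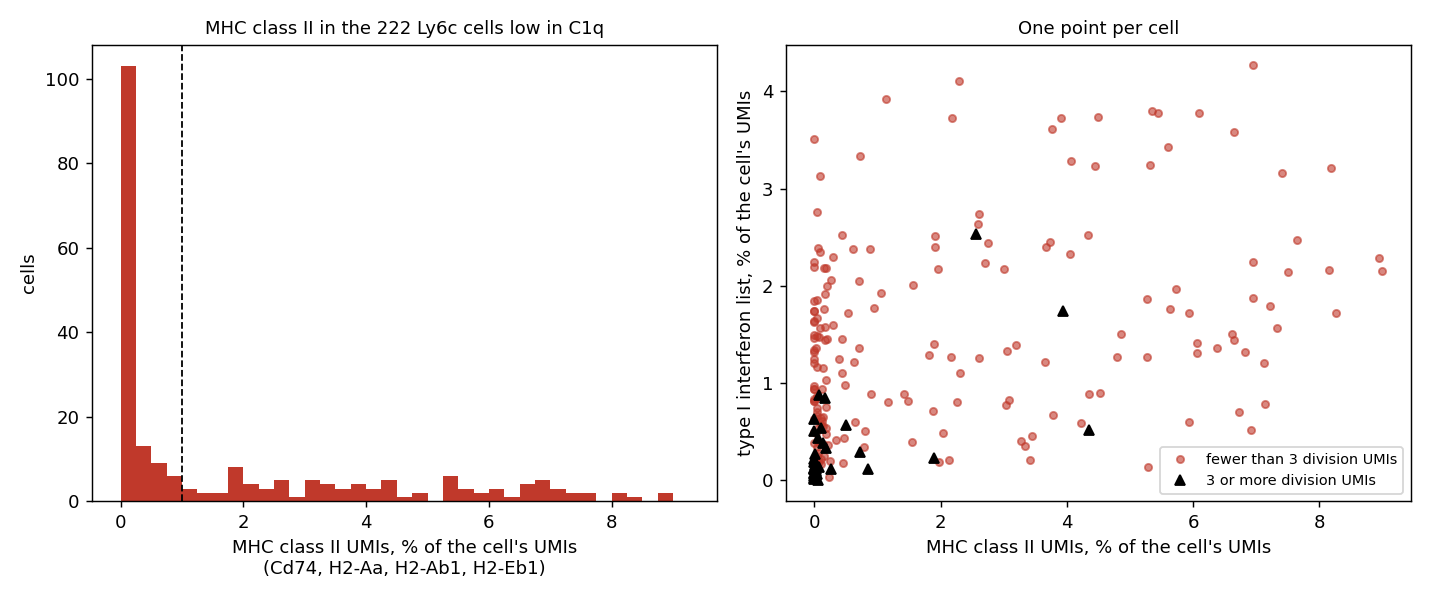
Left, number of Ly6c cells by the share of their UMIs from Cd74, H2-Aa, H2-Ab1 and H2-Eb1, with the limit of 1% dashed. Right, the same share against the share of the type I interferon list, one point per cell, with the 37 dividing cells as black triangles; 33 of these lie under the limit.

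The MHC class II-high and -low cells differed in some of the label's markers and in many other genes. Ccr2, at 655 CPM in the high and 573 in the low cells (log2 ratio 0.19, -0.08 to 0.46), did not differ beyond counting error. Csf1r was at 477 and 398 CPM (0.26, -0.06 to 0.58). Ly6c2 was somewhat lower in the high cells, at 1519 against 1874 CPM (-0.30, -0.47 to -0.14). Fcgr1 was higher, at 175 against 90.05 CPM (0.96, 0.34 to 1.59), but the ratio was 0.32 without the dividing cells. Ly6i was also higher, at 581 (501 to 670) against 118 CPM (87.9 to 156). A Ly6i UMI was found in 61 of 91 high cells (67.0%) and 31 of 131 low cells (23.7%). The rule used Ly6c2, Ly6i, Csf1r and Fcgr1, so their values across the split are a description only. A cell with little Ly6c2 could be a member only through Ly6i, and the high cells were deeper (median 2977 against 2473 UMIs). Of 4717 genes compared, 9.56% were at least 2-fold higher and 8.73% at least 2-fold lower in the MHC class II-high cells, with a median log2 ratio of 0.00. The same rule of naming, applied to this split after the data were seen, gave Itgax, the integrin CD11c, as the gene most raised in the high cells, at 231 against 4.74 CPM (log2 ratio 5.60). Mgl2, a galactose-type lectin of some dendritic cells and macrophages, was at 206 against 7.11 CPM (4.86), Ly6a, encoding Sca-1, at 554 against 28.4 (4.28), and Ciita, the master regulator of MHC class II transcription, at 129 against 9.48 (3.77). The others were Ccl5 (4.62), Slamf7 (4.46), Rgs1 (4.42), Scimp (3.99), F11r (3.84), Ccnd1 (3.84), Cfb (3.58) and Klrd1, which had 0 UMIs in the low cells. Ccl5 and Klrd1 are also genes of NK cells. In all, 5 Ly6c cells gave 82.9% of Ccl5 UMIs and 82.4% of Klrd1 UMIs, and 8 Ly6c cells had at least 3 UMIs of NK markers.

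Dendritic cell markers and monocyte markers moved in opposite directions across the split. Of 8 conventional dendritic cell markers compared, 6 were at least 2-fold higher in the MHC class II-high cells and 0 lower (median 1.78), yet Flt3 had 9.23 CPM in the high cells and 0 UMIs in the low cells. Of 15 classical monocyte markers, 0 were higher and 10 at least 2-fold lower (median -1.76). These included Chil3, a chitinase-like secreted protein, at 157 against 825 CPM, Hp at 141 against 630, and Lyz2, at 8088 against 19251. The Chil3 value rested on few cells: 5 Ly6c cells gave 46.4% of its UMIs, and without the 17 low cells that had at least 50 UMIs of S100a8 and S100a9 the low cells were at 296 CPM. Of 11 chemokines, 7 were at least 2-fold higher in the high cells and 0 at least 2-fold lower (median 1.77). Cxcl16 was at 360 against 37.9 CPM. Ccl3 (-0.82, -1.45 to -0.22), Ccl6 (-0.62, -0.99 to -0.25) and Ccl9 (-0.86, -1.48 to -0.26) went the other way, as did Ccl2 within counting error (-0.45, -1.27 to 0.34). Type I interferon genes were at least 2-fold higher in 22 of 37 and lower in 0 (median 1.34). The list summed to 15557 CPM in the high and 7265 in the low cells. It summed to 7325 CPM in the Ace cells and 5935 in all other kept cells, so the low cells were close to the Ace cells. Isg15 was at 1061 against 320 CPM, and Irf7, which amplifies interferon production, at 544 against 185. Single cells overlapped in the interferon share, with medians of 1.72% in the high and 0.704% in the low cells.

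Dividing cells lay mostly on 1 side of this split. At least 3 UMIs of 11 division genes were found in 37 Ly6c cells (median 5469 UMIs), of which 33 were MHC class II-low. With these 37 cells left out of both sides, the type I interferon median was 0.69 and the interferon-gamma median 0.39 in place of 1.11, so that these differences shrank. Isg15 was then at 1085 CPM in the high and 543 in the low cells. The chemokine median was 1.60, the dendritic marker median 2.16 and the classical monocyte median -1.61. Among chemokines, Ccl2 (-1.11), Ccl6 (-1.22) and Ccl9 (-1.44) were then more than 2-fold lower in the high cells, and Ccl3 was at -0.66. The genes most reduced in the high cells were at first those of dividing cells and early granulocytes, such as Hist1h1b (-5.13) and Prtn3, a granule protease (-5.11). Without the dividing cells, the genes most reduced included Fn1, encoding fibronectin (-2.92), Cd177 (-2.74), Tppp3 (-2.71), F13a1 (-2.41) and Hp (-2.31).

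**Figure D4:**
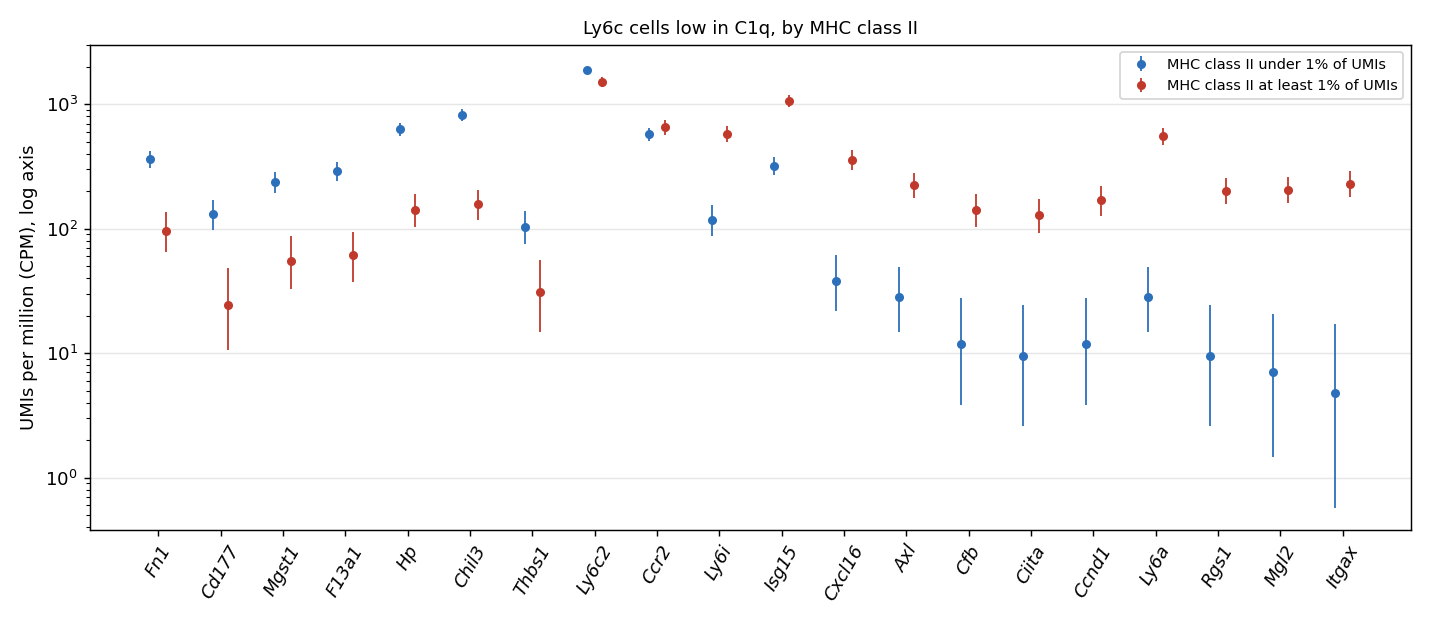
Levels of 20 genes in the 131 MHC class II-low (blue) and 91 MHC class II-high (red) Ly6c cells, in CPM on a log axis, with exact 95% Poisson intervals for counting error. Ccr2 lies close together in both groups, Fn1 to Thbs1 are lower and Ly6i to Itgax higher in the red group.

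The dividing Ly6c cells were deeper than the other 185, with a median of 5469 against 2438 UMIs. Ccr2 was lower, at 385 CPM (307 to 478) in the dividing against 700 (630 to 774) in the other cells. Ly6c2 was at 1699 CPM (1530 to 1883) in the dividing and 1728 (1618 to 1844) in the other cells, given as a description only. Ly6c2, Csf1r and Fcgr1 are not compared, since the rule sets a fixed number of UMIs for them at any depth. This allows deeper cells a lower CPM. Isg15 was at 139 and 846 CPM, and Apoe at 153 and 1438. Elane, the neutrophil elastase gene made by granulocyte precursors, was at 515 CPM (424 to 621) in the dividing cells and 3.76 in the others, with 107 of the 111 Elane UMIs of the dividing cells in 8 cells and up to 55 in 1 cell. At least 3 UMIs of Mpo, Elane, Prtn3 and Ctsg together, the genes of primary granule proteins, were found in these 8 Ly6c cells, and all 8 were dividing and MHC class II-low. The name monocyte-derived is therefore not borne out by the markers of these 8 cells, which the rule admits. A further set of 23 cells had at least 50 UMIs of S100a8 and S100a9, with a median of 594. Of these, 17 were MHC class II-low and 8 were dividing. At least 10 UMIs of neutrophil granule genes, the limit used for the granule-gene class, were found in 17 Ly6c cells. All 17 were among these 23 cells, and 11 of the 17 were MHC class II-low. The name monocyte-derived is not borne out by the granule genes of these 17 cells either, and what they are was not tested.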

How the data were processed

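The deposited values of both libraries are raw UMI counts, made by the authors with Cell Ranger 6.0.0 (2021) and 8.0.0 (2024), per the file headers, on build mm10, per the submitters' processing notes; the annotation and the setting for intronic reads are not given in the sources used here. Barcodes of the 2021 library with at least 500 UMIs, 300 genes and at most 10% mitochondrial UMIs were kept. Doublets were scored with scanpy 1.11.5 and left in, with an alternative that removed the 6% with the highest scores.

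UMIs were summed per group and expressed per 1e6 UMIs (CPM). Genes entered a comparison with a mean CPM of at least 20 over both groups and at least 15 UMIs, and a group at 0 UMIs was set to 3. Log2 ratios carry exact conditional intervals, computed with scipy 1.17.1 and checked on simulated data. A ratio past 2-fold was counted as higher or lower. Named genes are the 12 with the highest and the 12 with the lowest ratio, given 100 CPM or more and a UMI in at least 10% of cells of the higher group, without rule genes and ribosomal, mitochondrial and antigen receptor genes; list genes are examples. The members, the lists and the tests were chosen with earlier results of these data known. Some genes that met these rules are not reported here.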

Additional observations from a re-analysis of the deposited data

How the results depend on the processing

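No paired analysis was possible because the labels give a single group, and only 1 library had gene names; leaving out a replicate was not possible for the same reason. The share of kept cells in the group was 8.58% under a stricter cell filter, 5.65% with at least 3 Ly6c2 and Ly6i UMIs, 3.36% with at least 2 Csf1r and Fcgr1 UMIs and 4.49% without cells holding other types' markers. The share of thinned cells with a Ccr2 UMI was 73.6% without the latter, 45.6% at 1000 UMIs and 78.8% unthinned. MHC class II took 1.94% of UMIs. It took 1.90% with at least 3 Ly6c2 and Ly6i UMIs, 1.76% on Ly6c2 alone, 1.77% without C1q UMIs, 2.69% with at least 2 Csf1r and Fcgr1 UMIs, 1.76% without the highest doublet scores, 2.38% without other types' markers and 1.90% as a mean over cells. It took 2.12% without the S100a8-rich and 2.52% without the dividing cells, both alternatives added after seeing the data.

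Against the Ace cells, 138 genes were at least 2-fold higher and 567 lower. Scaling by the median of ratios, a shift of -0.14 on the log2 scale, gave 211 higher and 415 lower. The count of higher genes was 215 with at least 2 Csf1r and Fcgr1 UMIs, 229 without the highest doublet scores, 300 as a mean over cells and 224 against the Ace cells low in C1q. Without a filter on low counts it was 1487, with 2848 lower. Against all other kept cells, 131 were higher and 223 lower. The higher count was 271 with at least 2 Csf1r and Fcgr1 UMIs, 290 without other types' markers and 246 without the dividing cells. The lower count was 363 as a mean over cells, and the unfiltered counts were 5176 higher and 1540 lower. The median of the type I interferon list against all other kept cells, 0.86, was 1.32 without other types' markers and 1.31 without the dividing cells. Without the dividing cells, Cenpa was at -0.26, Hist1h2ae at -2.89, Stmn1 at -1.77 and Birc5 at -2.75 against the Ace cells, since that setting removes the cells chosen by such genes. For the other values the cause was not tested. Of 500 recomputed list medians, 462 moved little, and of 552 recomputed ratios of named genes, 446 did and 4 changed direction.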
